A study of Mus musculus with 17 samples.

Results

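The genes described here are 10 members of the classical and Qa class I MHC pathway, H2-K1, H2-D1, H2-Q4, H2-Q6, H2-Q7, H2-T23, B2m, Tap1, Tap2 and Nlrc5, out of 30406 genes measured in all 17 single-cell libraries of the series. They were chosen by earlier values from these libraries, since H2-Q7 was higher with bleomycin in skin stroma and H2-Q6 was high in 1 kidney library labelled as given aristolochic acid. The differences with bleomycin in skin stroma and with aristolochic acid in kidney are therefore given as a description, in which a count of calls carries no weight, and tests are kept for the other cell classes, the transgene and the comparison between cell classes.

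Class I molecules carry peptides made inside a cell to its surface, where CD8 T cells and natural killer (NK) cells read them. H2-K1 and H2-D1 encode the classical heavy chains, and H2-Q4, H2-Q6, H2-Q7 and H2-T23 encode nonclassical (class Ib) heavy chains, of which H2-Q7 gives the Qa-2 antigen and H2-T23 the Qa-1 molecule. B2m encodes β2-microglobulin, the light chain that all of these heavy chains need. Tap1 and Tap2 form the transporter that brings peptides into the endoplasmic reticulum, and Nlrc5 is a transactivator of class I genes that interferon-γ induces.

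Cells came from 8-week-old mice that carried PDGFRb-Cre and the Z/EG reporter, in which Cre switches on GFP, and GFP+ cells were sorted from digested skin or kidney. SARAWT mice lacked and SARATg mice carried a human SARA (ZFYVE9) cDNA behind a floxed stop in the Rosa26 locus, so that Cre turned it on. The PDGFRb promoter is also active in embryonic leukocyte precursors, so the sort and the transgene cover leukocytes as well as stroma. The skin of SARAWT mice gave 3 libraries after PBS and 3 after bleomycin at 20 mg/kg under the skin, 3 times a week for 2 weeks per the labels (daily per the study's methods), and that of SARATg mice gave 1 after PBS and 1 after bleomycin. The kidney of SARAWT mice gave 3 libraries after vehicle and 3 after intraperitoneal aristolochic acid, a nephrotoxin, at 5 mg/kg, 3 times a week for 3 weeks, and that of SARATg mice gave 2 after vehicle and 1 after aristolochic acid. The number of mice behind a library is not given in the sources used here, so p-values measure the spread between libraries.

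Gene positions follow GENCODE vM21 on GRCm38. Tap1 (chr17:34187553-34197225) and Tap2 (chr17:34203527-34216321) are neighbours in the MHC, between H2-K1 (chr17:33996017-34000347) and H2-D1 (chr17:35262730-35267499). H2-Q4 (chr17:35379617-35385290), H2-Q6 (chr17:35424850-35430055) and H2-Q7 (chr17:35439155-35443773) follow on the plus strand, and H2-T23 (chr17:36029773-36032855) lies beyond them on the minus strand. B2m is on chromosome 2 (chr2:122147686-122153083) and Nlrc5 on chromosome 8 (chr8:94434356-94527272), outside the MHC.

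The 250 bases before the RefSeq start (GRCm38.p6) are shown for H2-K1 (chr17:34000348-34000597, minus strand) and for the 3 Q genes, H2-Q4 (chr17:35379367-35379616), H2-Q6 (chr17:35424600-35424849) and H2-Q7 (chr17:35438905-35439154), because class I promoters carry a shared block of short elements and the Q genes carry it in different forms. Capitals mark exact matches to 4 searched words, which are an NF-kB word of class I genes (the run of capitals that opens with GGGG), TTTCACTT for the interferon response element, TGACG for the CRE and ATTGG or CCAAT for the inverted CCAAT box.
H2-K1: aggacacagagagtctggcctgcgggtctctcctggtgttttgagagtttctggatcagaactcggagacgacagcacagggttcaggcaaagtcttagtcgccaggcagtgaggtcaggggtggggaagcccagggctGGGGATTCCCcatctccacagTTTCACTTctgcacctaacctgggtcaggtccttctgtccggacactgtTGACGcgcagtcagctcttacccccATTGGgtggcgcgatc
H2-Q4: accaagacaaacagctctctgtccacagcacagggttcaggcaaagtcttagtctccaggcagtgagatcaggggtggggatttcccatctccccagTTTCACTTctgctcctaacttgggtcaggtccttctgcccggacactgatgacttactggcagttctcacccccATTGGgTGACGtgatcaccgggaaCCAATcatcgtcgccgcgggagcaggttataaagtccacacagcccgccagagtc
H2-Q6: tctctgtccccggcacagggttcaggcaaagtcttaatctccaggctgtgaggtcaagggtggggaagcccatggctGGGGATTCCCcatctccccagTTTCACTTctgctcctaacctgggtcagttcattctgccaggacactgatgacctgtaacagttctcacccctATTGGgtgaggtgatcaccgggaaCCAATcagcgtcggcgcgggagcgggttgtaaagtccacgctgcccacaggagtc
H2-Q7: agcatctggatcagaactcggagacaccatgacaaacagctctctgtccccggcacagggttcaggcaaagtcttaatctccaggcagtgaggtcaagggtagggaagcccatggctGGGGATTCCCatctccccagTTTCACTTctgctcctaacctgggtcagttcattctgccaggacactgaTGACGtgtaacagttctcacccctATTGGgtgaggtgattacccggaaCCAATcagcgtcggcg
Both strands were searched and no match overlapped another. Of the 8 members with a promoter in the table, 4 held the NF-kB word, 5 held TTTCACTT, 6 held TGACG and 8 held ATTGG or CCAAT. Of all 27025 promoters of the same length, 0.0814%, 1.44%, 17.9% and 34.5% held these words. H2-Q4 had no exact NF-kB word (ggggatttccc stands in that place) and H2-Q6 no TGACG, whereas H2-Q7 held all 4 words. In H2-Q4, TGACG lay after ATTGG, at 73 to 69 against 79 to 75 bases before the start. In H2-K1 and H2-Q7 it lay before ATTGG, so the H2-Q4 match is not in the same place. Whether a match is a working element was not tested. The counting reads of this chemistry come from the 3′ ends of transcripts. Of 411 words of 90 bases in the last 500 bases of each longest coding transcript, none of H2-K1, H2-D1, H2-Q7, B2m, Tap1, Tap2 or Nlrc5 occurred in another gene. In H2-Q4, H2-Q6 and H2-T23 39, 45 and 55 of these words did, so values of these 3 genes may miss reads shared with other genes. The check covers annotated transcripts only. The class I genes H2-Q5, H2-Q8, H2-Q9, H2-K2 and H2-L were not found by name among the shared genes. Whether reads of such genes count towards a member was not tested.

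Whole-number counts of unique molecular identifiers (UMIs) were summed per library and cell class and given as counts per 1000000 UMIs of that class (CPM). Cells were put into a class when at least 3 of its marker genes were present and led every other class by at least 2 markers. The labels call all cells PDGFRb+GFP+, but Pdgfrb itself was at most 0.344 CPM in kidney proximal tubule and 0.763 CPM in kidney T cells, against 29.9 to 197 CPM in skin stroma. Kidney libraries held 0 to 42 stromal cells, so kidney stroma was not compared, and 448 to 7348 proximal tubule cells. Total UMIs per library ranged from 3355217 to 69765525 in skin and from 28660151 to 137093834 in kidney. Some libraries went against their labels or stood apart. Mouse Zfyve9 was 620 CPM in the library labelled SARAWT PBS 3 and 7.64 to 25.8 CPM in the other 5 SARAWT skin libraries, against 314 and 226 CPM in SARATg PBS and SARATg bleomycin, and human ZFYVE9, listed in 4 of them, was 845 CPM in the library labelled SARAWT PBS 1 and 89.3 to 190 CPM in the other 3. In kidney, Zfyve9 was 165 CPM in the library labelled SARAWT aristolochic acid 1 and 20.4 CPM in the library labelled SARATg aristolochic acid 1, against 88.9 and 89.6 CPM in the SARATg vehicle libraries and 10.9 to 31.6 CPM in the other SARAWT libraries. In the library labelled SARAWT vehicle 3, proximal tubule cells had 55.2 CPM of the injury marker Havcr1, against 0.882 and 3.73 CPM in vehicle libraries 1 and 2. Of the barcodes of SARAWT PBS library 2, 55.5% also occurred in another library, against 7.38% to 22.1% in PBS 1 and bleomycin 1 and 2 and at most 0.824% in the other skin libraries.

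H2-K1 and B2m were detected in every class, and T cells, NK cells and endothelial cells stood near the top in both tissues. H2-K1 was highest in skin NK cells (3259.8 ± 572 CPM, SD, n = 5 libraries), type 2 innate lymphoid cells (ILC2, 2930.4 ± 949, n = 4) and T cells (2557 ± 549.7, n = 7), followed by endothelial cells (2232 ± 586, n = 8). It was lowest in mural cells (377 ± 145, n = 7), the pericyte and smooth muscle class, and in skeletal muscle cells (419 ± 201, n = 5), and stromal cells had 845 ± 375 CPM (n = 8). In kidney, H2-K1 was highest in T cells (2696 ± 607, n = 9), endothelial cells (2447 ± 789.8, n = 8) and NK cells (2444 ± 339.5, n = 9) and lowest in distal convoluted tubule (188 ± 203, n = 3) and intercalated cells (203 ± 123, n = 8).

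Neighbours in this order often could not be separated. In skin, T cells lay above endothelial cells in 4 of 7 libraries and stromal cells above muscle in 4 of 5, whereas endothelial cells lay above macrophages in 8 of 8. In kidney, T cells lay above endothelial cells in 5 of 8 libraries and endothelial above NK cells in 4 of 8, whereas NK cells lay above macrophages in 9 of 9. Proximal tubule lay above thick ascending limb in 5 of 9.

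**Figure D1:**
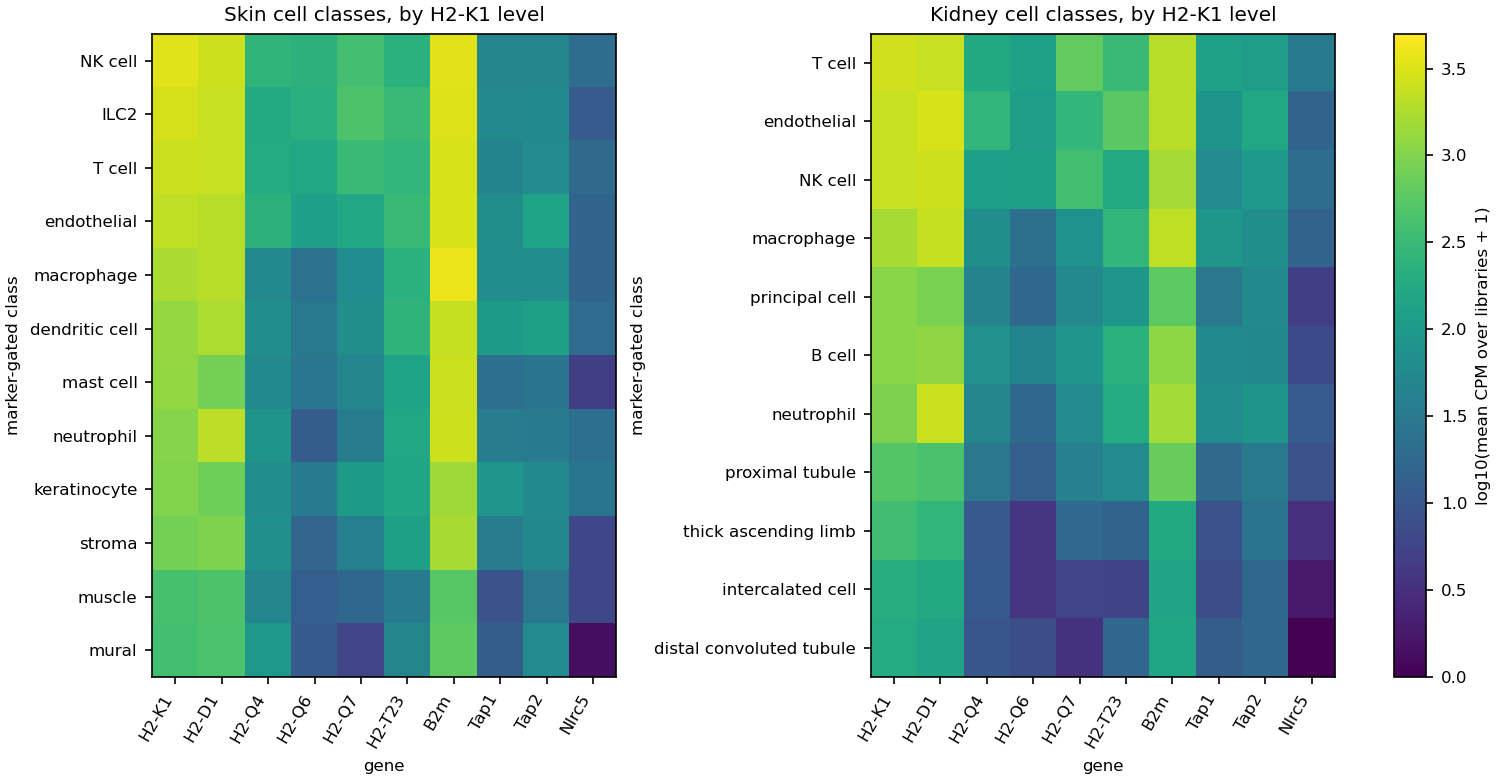
Mean level of each of the 10 genes (columns) in each cell class (rows, ordered by H2-K1) of skin (12 classes) and kidney (11 classes), as log10 of mean CPM + 1 over libraries. For H2-K1, T, NK and endothelial cells stand at the high end in both tissues and mural and muscle cells at the low end in skin, an order that Tap1, Tap2 and Nlrc5 do not keep, and distal tubule, intercalated and thick ascending limb cells are the lowest kidney classes for all 10 genes.

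The other genes did not all follow H2-K1. B2m had its highest mean in macrophages in both tissues, at 3853 ± 1072 CPM in skin (n = 8) and 2228 ± 398 CPM in kidney (n = 9). Macrophages lay above NK cells, next in order in skin, in 2 of 5 libraries with both, and above T cells in 8 of 9 kidney libraries. Tap1 had its highest mean in dendritic cells in skin (104 ± 32.99 CPM, n = 8), above keratinocytes in 6 of 8 libraries, and in T cells in kidney (132 ± 38.5 CPM, n = 9), above macrophages in 8 of 9. For Tap2 it was in endothelial cells in both (138 ± 30.9 and 157 ± 42.1 CPM, n = 8 each), above dendritic cells in 5 of 8 skin and T cells in 6 of 8 kidney libraries. For Nlrc5 it was in keratinocytes in skin (26.0 ± 10.2 CPM, n = 8), above neutrophils in 6 of 8 libraries, and in T cells in kidney (34.1 ± 9.36 CPM, n = 9), above NK cells in 8 of 9, and mural cells had 0.356 ± 0.941 CPM (n = 7). H2-T23 had its highest kidney mean in endothelial cells (560.0 ± 196 CPM, n = 8), above T cells (317 ± 95.6 CPM, n = 9) in 8 of 8 libraries.

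Across the 23 classes of both tissues, the genes with the pattern most like H2-K1 among 14140 genes were H2-Q7 (Pearson r = 0.949 on log2(CPM + 1)), H2-D1 (0.936), H2-T23 (0.919), Tpm3 (0.910) and Donson (0.908). For H2-Q7 they were H2-K1 (0.949), H2-Q6 (0.916), Tapbpl (0.884), Tmc8 (0.874) and H2-T22 (0.869). For Nlrc5 they were H2-Q7 (0.851), H2-D1 (0.847), Tap1 (0.836), H2-K1 (0.834) and Fau (0.830). These are descriptions over class means, which share libraries and depth.

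The class differences were tested within libraries, each skin class against stroma and each kidney class against proximal tubule, with edgeR's quasi-likelihood test, a term for the library and Benjamini-Hochberg adjustment at 0.05. In skin, 56 of 109 tests of the members were higher and 15 lower than in stroma, where 21.8% of all 128487 tests were higher and 32.4% lower. All 10 genes were higher in T cells and in endothelial cells. H2-Q6 and H2-Q7 had the largest folds in T cells, by a log2 fold of 3.20 (SE 0.40, adjusted p = 3.27e-05, edgeR) and 2.57 (SE 0.53, adjusted p = 0.00123, edgeR). H2-K1 was higher by 1.79 (SE 0.16), and each of these 3 genes was higher in 7 of 7 libraries. For H2-Q7, T cells were only just above stroma in PBS 3 and SARATg bleomycin, whose low H2-Q7 is given below. Tap1 (0.44) and Tap2 (0.43) differed least, and Tap2 was higher in 4 of 7 libraries.

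Macrophages and dendritic cells, which present antigen, were higher than stroma for 8 and 9 of the 10 genes, where 34.9% and 29.6% of all genes were higher. H2-Q4 passed in neither, and H2-Q7 not in macrophages. In dendritic cells Nlrc5 was higher by a log2 fold of 2.38 (SE 0.33), Tap1 by 2.01 (SE 0.13) and Tap2 by 1.64 (SE 0.15), in 8 of 8 libraries each. Keratinocytes were higher for H2-Q6 (1.08), Tap1 (1.37) and Nlrc5 (2.53), where 22.7% of all genes were higher. The 5 heavy-chain genes H2-K1, H2-D1, H2-Q4, H2-Q7 and H2-T23, B2m and Tap2 did not pass there. Mural and muscle cells were lower than stroma for the same 6 genes, H2-K1, H2-D1, H2-Q7, H2-T23, B2m and Tap1, where 20.9% and 23.9% of all genes were lower. In mural cells B2m was lower by a log2 fold of -1.68 (SE 0.30) and H2-Q7 of -2.62 (SE 0.53). The median of all genes in these skin fits ranged from -0.85 to 0.03 between classes.

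In kidney, 61 of 99 tests were higher and 17 lower than in proximal tubule, against 24.5% and 32.7% of all 131728 tests. All 10 genes were higher in T cells, NK cells, endothelial cells and macrophages. H2-Q7 differed most in T cells (log2 fold 5.01, SE 0.72, adjusted p = 3.70e-05, edgeR) and B2m least (2.09, SE 0.30), and both were higher in 9 of 9 libraries. Thick ascending limb cells, a more distal tubule segment, were lower for 8 genes, all but H2-K1 and Tap2, where 26.3% of all genes were lower. B2m had a log2 fold of -2.03 (SE 0.28) and H2-T23 of -2.27 (SE 0.31). H2-D1 was lower there by -0.61 (SE 0.21), although 4 of 9 libraries were higher. Limited to control libraries, the lower calls came to 7 of 88 in skin and 4 of 89 in kidney, against 28.6% and 30.2% of all tests. In kidney, folds above 0 were then 78 of 89, against 70 of 99 in all libraries. At least part of the 8 lower calls in thick ascending limb thus depended on the treated libraries. The proximal tubule reference itself differed between libraries, as given below, and the part of this in the calls was not tested. Summed B cell markers in kidney T cells ranged from 1541 to 57937 CPM in SARAWT vehicle libraries and from 291 to 30373 CPM with aristolochic acid, and the part of such RNA in these levels was not tested.

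H2-Q7 split the libraries in a way that H2-K1 did not. In kidney T cells, H2-Q7 was 10.4, 869 and 624 CPM in SARAWT vehicle libraries 1 to 3, 1631, 14.6 and 734 CPM in SARAWT aristolochic acid libraries 1 to 3, 732 and 512 CPM in SARATg vehicle libraries 1 and 2, and 749 CPM in the SARATg aristolochic acid library. SARAWT vehicle 1 and aristolochic acid 2 thus lay far below the other 7, and 1 low library stood on each side of the SARAWT treatment comparison. The counts behind the low values were 14 UMIs in 345 cells (95% Poisson interval 5.67 to 17.4 CPM) and 115 UMIs in 2022 cells (12.1 to 17.5 CPM), against 8503 UMIs in the 3292 cells of vehicle 3. H2-K1 in the same cells was 1827, 2342 and 3388 CPM, 3653, 2043 and 2863 CPM, 2590.0 and 2470.1 CPM, and 3089.5 CPM, a range of 2.00 times against 157 times for H2-Q7.

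The same happened in skin T cells. H2-Q7 was 425 and 15.7 CPM in SARAWT PBS 1 and 3, 487, 377 and 346 CPM in SARAWT bleomycin 1 to 3, 492 CPM in SARATg PBS and 10.7 CPM in SARATg bleomycin. PBS 3 and SARATg bleomycin lay below the rest, and PBS 2 had under 10 T cells and was not used. H2-Q6 was low in the same libraries, at 22.4 CPM in PBS 3 and 25.1 CPM in SARATg bleomycin against 128 to 301 CPM in the other skin libraries, and at 24.4 and 25.6 CPM in kidney SARAWT vehicle 1 and aristolochic acid 2 against 97.9 to 266 CPM in the other kidney libraries.

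**Figure D2:**
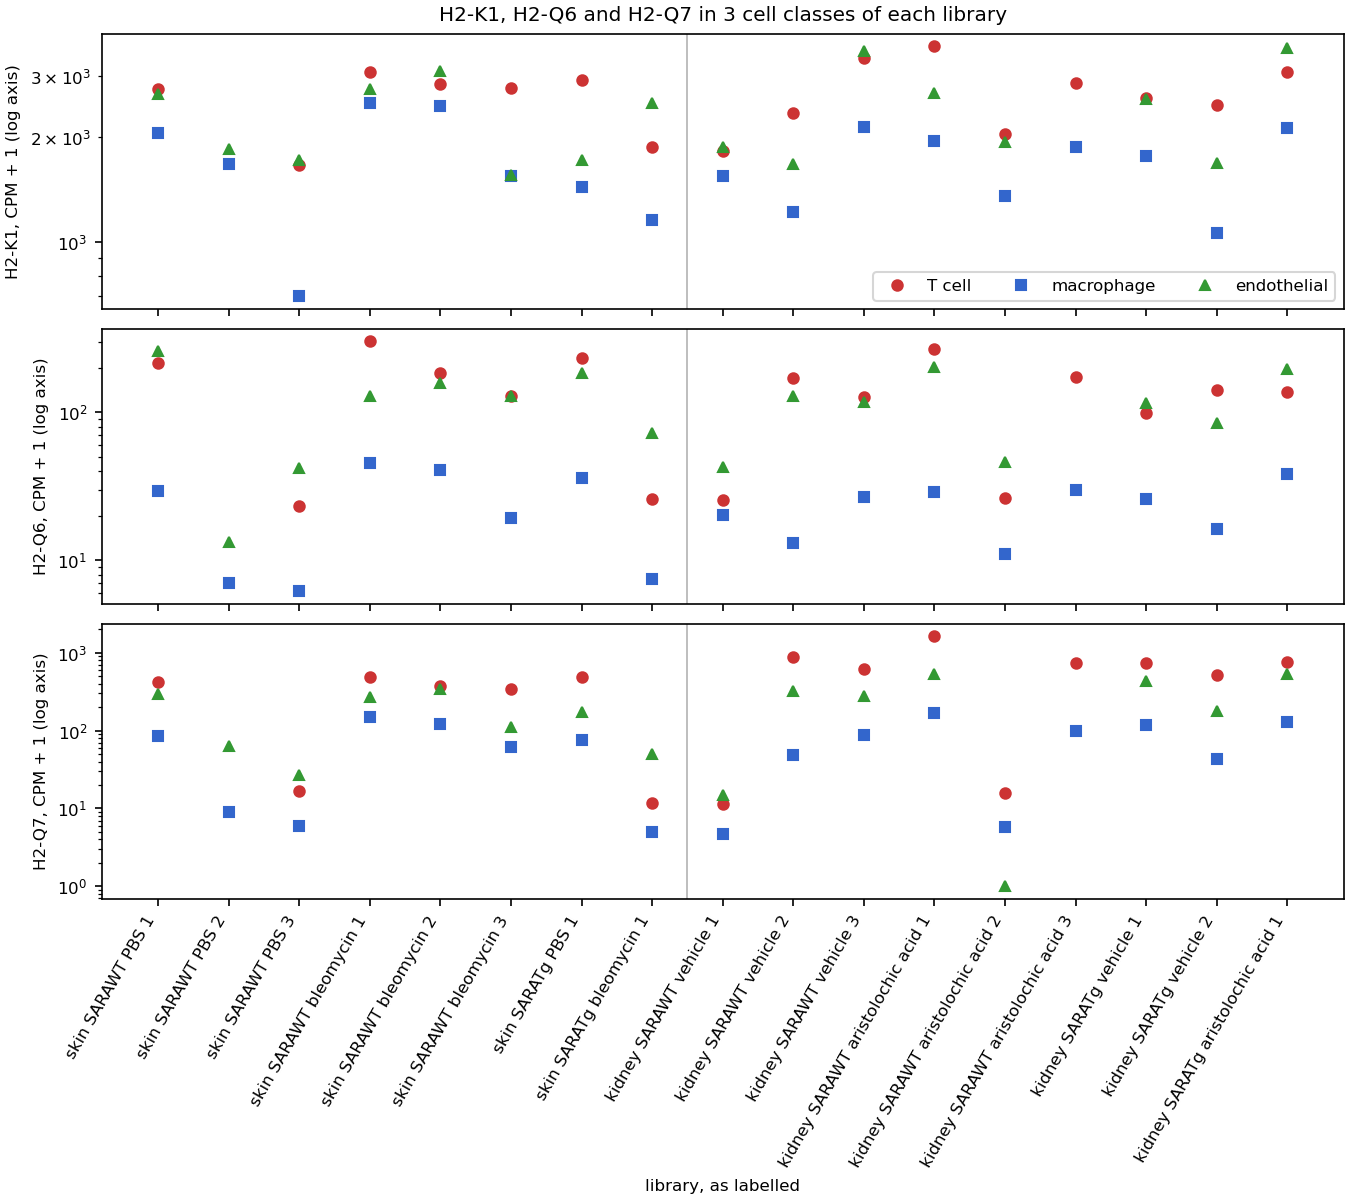
CPM + 1 (log axis) of H2-K1, H2-Q6 and H2-Q7 in T cells, macrophages and endothelial cells of each of the 17 libraries, 1 point per library. In T cells, H2-Q7 lies at 10.4 to 15.7 CPM in 4 libraries and at 346 CPM or more in the others, while H2-K1 stays between 1669 and 3653 CPM.

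The split was also seen in macrophages, but not in every class. In macrophages, H2-Q7 was 3.73 and 4.78 CPM in kidney SARAWT vehicle 1 and aristolochic acid 2 against 41.9 to 166 CPM in the other 7 kidney libraries. In skin macrophages, H2-Q7 was 8.05, 4.96 and 4.02 CPM in SARAWT PBS 2, PBS 3 and SARATg bleomycin, against 60.6 to 148 CPM in the other 5. Over all classes with at least 10 cells, the highest H2-Q7 value was 21.0 CPM in kidney vehicle 1, 48.3 CPM in aristolochic acid 2, 38.6 CPM in skin PBS 3, 61.9 CPM in PBS 2 (5 UMIs) and 49.7 CPM in SARATg bleomycin. In every other library H2-Q7 reached at least 354 CPM in some class. Stroma and neutrophils did not show the split. In stroma PBS 1 (18.9 CPM) lay between PBS 2 and 3 (20.1 and 14.8 CPM), and in kidney neutrophils vehicle 1 (21.0 CPM, 2 UMIs) lay beside vehicle 2 (20.7 CPM). Neutrophils held the highest value in kidney vehicle 1, aristolochic acid 2 and skin PBS 3, and endothelial cells in the other two.

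Ranked by the SD of log2 CPM over libraries, H2-Q7 was number 17 of 7646 genes in kidney T cells, 12 of 8992 in endothelial cells, 10 of 7446 in NK cells, 23 of 8178 in proximal tubule and 28 of 8135 in thick ascending limb. In skin, H2-Q7 was number 2 of 6776 in NK cells (5 libraries), 35 of 6858 in T cells, 46 of 7231 in macrophages and 10 of 8066 in keratinocytes. Its place was further down in other classes, among them 310 of 6720 in skin dendritic cells, 513 of 8406 in stroma, 2222 of 5597 in skin neutrophils, 3279 of 8596 in skin endothelial cells and 3428 of 7024 in kidney neutrophils. H2-K1 was number 2708 of 7646 in kidney T cells. The libraries with low H2-Q7 are not a group of the study, and no difference between them and the others was tested.

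In skin stroma, the class with Col1a1 and Pdgfra, all 10 genes had higher mean CPM with bleomycin than with PBS in SARAWT mice, and H2-Q7, which chose the comparison, and H2-Q6 differed most. H2-Q7 was 18.9, 20.1 and 14.8 CPM in PBS libraries 1 to 3 and 79.2, 86.1 and 52.9 CPM in bleomycin libraries 1 to 3, a log2 fold of 2.08 (SE 0.25). H2-Q6 was 6.55, 6.28 and 10.6 CPM against 29.5, 33.5 and 16.6 CPM, a log2 fold of 1.72 (SE 0.38). The groups did not overlap for either gene, and the value in PBS 2 rested on 16 UMIs of H2-Q7 and 5 of H2-Q6. PBS 2 and 3 are among the 5 libraries with low H2-Q7 in other classes and no SARAWT bleomycin library is, and the part of this in the folds was not tested. The markers of the class differed between the same groups, with Col1a1 at 14430 to 27928 CPM with PBS and 6422 to 11028 CPM with bleomycin, Pdgfra at 278 to 356 and 89.1 to 186 CPM, and Pdgfrb at 122 to 197 and 54.7 to 70.0 CPM. None of these markers overlapped between the groups, and the part of this shift in the class I folds was not tested.

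The transactivator and the peptide transporter lay in the same direction. Nlrc5 was 2.90, 3.77 and 3.47 CPM with PBS and 8.97, 11.0 and 6.24 CPM with bleomycin (log2 fold 1.42, SE 0.39). Tap1 was 27.8, 11.3 and 24.7 CPM against 74.4, 55.5 and 38.3 CPM (1.34, SE 0.35). Tap2 overlapped, at 37.1, 74.1 and 43.0 CPM against 64.7, 73.4 and 55.0 CPM (0.40, SE 0.29), and its difference turned to -0.18 without the libraries labelled PBS 1 and PBS 3.

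Among the other chains, B2m was 965, 1564 and 1246 CPM with PBS and 2568, 3227 and 1588 CPM with bleomycin (log2 fold 0.99, SE 0.31). H2-D1 was 487, 894 and 812 CPM against 1326, 1791 and 993 CPM (0.92, SE 0.32), and H2-K1 was 559, 810.3 and 561 CPM against 1157, 1630.4 and 760.1 CPM (0.90, SE 0.30). B2m and H2-D1 did not overlap, whereas H2-K1 overlapped through bleomycin 3. H2-Q4 ran from 35.9 to 70.3 CPM with PBS and from 65.9 to 149 CPM with bleomycin (1.03, SE 0.37), and H2-T23 from 100.3 to 127 CPM and from 125 to 223 CPM (0.46, SE 0.27). Bleomycin 3 was the lowest bleomycin library for every gene but H2-T23, for which bleomycin 1 was.

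**Figure D3:**
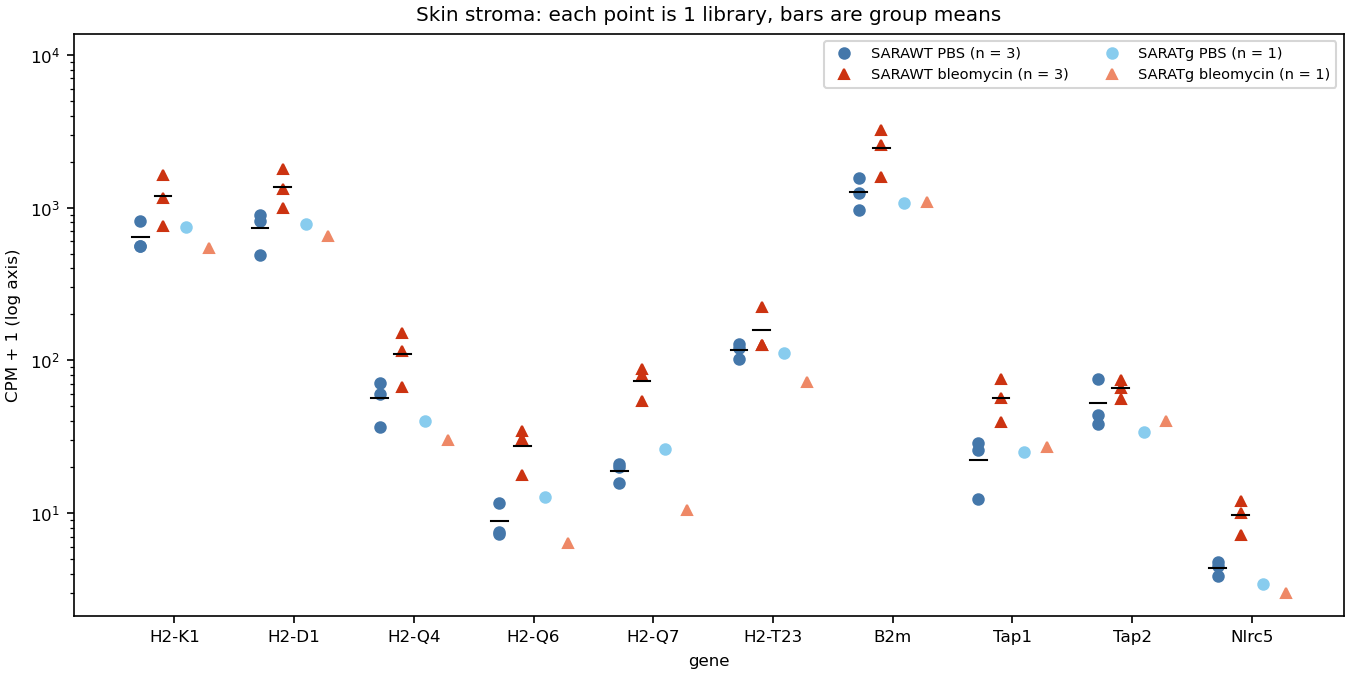
CPM + 1 (log axis) of the 10 genes in skin stroma, 1 point per library and a bar at the mean of groups with more than 1 library, for SARAWT PBS (3), SARAWT bleomycin (3), SARATg PBS (1) and SARATg bleomycin (1). The 3 SARAWT bleomycin points lie above all SARAWT PBS points for H2-Q6, H2-Q7, H2-D1, B2m, Tap1 and Nlrc5.

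In the fit across all genes, 2.34% of 11306 genes were called higher and 1.81% lower, and 2 of the 10 genes, H2-Q6 and H2-Q7, were among the first. The groups did not overlap for 6 of 10, against 30.4% of all genes. Whether the label numbers pair these libraries is not settled. With the replicate block, as an alternative, H2-Q7, H2-K1 and Tap1 were called and H2-Q6 was not, against 5.87% of all genes called higher. Since these genes were picked from this contrast, nothing is read from these calls. The median log2 fold of the 10 was 1.01 and of all genes -0.02. Without the libraries labelled PBS 1 and PBS 3, which leaves PBS 2 as the lone PBS library, the log2 fold was 1.88 for H2-Q7 and 2.09 for H2-Q6. It was 2.19 and 2.01 without barcodes shared between libraries. Ptprc, the leukocyte marker CD45, was 11.3 to 20.3 CPM with PBS and 7.69 to 17.3 CPM with bleomycin in these cells. Summed T cell markers were 281 to 405 CPM and 210.0 to 395 CPM, summed macrophage markers 214 to 399.6 CPM and 114 to 181 CPM, summed B cell markers 365 to 606 CPM and 159.8 to 333.02 CPM, and summed neutrophil markers 90.6 to 495 CPM and 64.2 to 80.5 CPM.

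In stroma of the single SARATg libraries, bleomycin against PBS gave 9.48 and 25.4 CPM of H2-Q7, 5.35 and 11.7 CPM of H2-Q6, 543 and 741 CPM of H2-K1, and 1089.8 and 1067 CPM of B2m. The SARATg bleomycin library was the one with low H2-Q7 in its T cells and macrophages too. The markers of the class also differed between these libraries, with Col1a1 at 5320 CPM after bleomycin and 83029 CPM after PBS and Col1a2 at 4655 and 76783 CPM. With 1 library per group, these values have no replicate check.

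The genes around the class I pathway were followed with 4 fixed lists. As a description of skin stroma, the contrast that chose the members, of 11 genes for peptide generation and loading, Psmb8, an immunoproteasome subunit, was higher by a log2 fold of 1.505 and Psme2, a proteasome activator subunit, by 1.16. None of the 6 other class I genes tested passed, nor did the 1 tested of 8 cytokine and immune receptor genes. No gene of the 4 lists was called lower.

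The same libraries were compared in the 8 other skin classes that could be fitted, where the bleomycin effect was not used to choose the genes although the mice are the same. Of the 80 possible tests 64 could be made, and none passed with edgeR's quasi-likelihood test, where 0.0240% of all 45764 tests were higher and 0.0328% lower. At an unadjusted p under 0.05 there were 23 of 64, against 8.79% of all tests. Single libraries moved this count, to 9 of 60 without PBS 3 (15.0%, against 13.7% of all tests), 11 of 68 without bleomycin 2 (16.2%, against 6.90%) and 13 of 61 without bleomycin 1 (21.3%, against 5.86%). DESeq2 called 2 higher and 0 lower, against 0.330% and 0.582% of all tests. The fold was above 0 in 56 of 64, against 51.0% of all tests, and the groups did not overlap in 20, against 18.1%. Tests of 1 gene in several classes share their mice, and genes of 1 class share its libraries.

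The fold was above 0 for all 10 genes in macrophages, keratinocytes and T cells. In macrophages, H2-T23 was 186, 178 and 124 CPM with PBS and 325, 394 and 236 CPM with bleomycin, a log2 fold of 1.07 (SE 0.24, adjusted p = 0.269, edgeR). Tap1 in macrophages was 65.2, 53.3 and 21.97 CPM against 119, 94.1 and 42.4 CPM (0.99, SE 0.45, adjusted p = 0.519, edgeR). In macrophages the replicate numbers set number 3 apart but did not tell 1 from 2. The deviations of bleomycin 2 correlated with PBS 1 (r = 0.240) as much as with PBS 2 (r = 0.236). With the replicate block, as an alternative, both genes passed in edgeR, H2-T23 at 1.04 (adjusted p = 0.0369) and Tap1 at 0.96 (adjusted p = 0.0419). Each bleomycin library was higher than its same-numbered PBS library for both genes.

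In keratinocytes, B2m was 970.5, 1345 and 639.8 CPM with PBS and 1476, 2363 and 2226 CPM with bleomycin (log2 fold 1.13, SE 0.31, adjusted p = 0.243, edgeR). H2-K1 there was 884, 986 and 344 CPM against 1142, 1457 and 1291 CPM (0.92, SE 0.36, adjusted p = 0.423, edgeR). Both genes were higher in every bleomycin library than in any PBS library and did not pass. H2-Q7 in keratinocytes was 119, 0 and 3.57 CPM with PBS and 184, 159.6 and 181 CPM with bleomycin (1.96, SE 0.97, adjusted p = 0.504, edgeR), and the 0 of PBS 2, with 18 cells, allows up to 22.9 CPM. PBS 2 and 3 are the PBS libraries that were also low in H2-Q7 in macrophages. Leaving out PBS 1 thus leaves only low libraries on the PBS side, PBS 2 and 3 in keratinocytes (log2 fold 5.71) and PBS 3 alone in T cells (4.75, with the spread taken from the bleomycin libraries). Both were then called by edgeR, and since the choice of libraries sets that outcome nothing is read from it.

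Mural cells, with 2 bleomycin and 3 PBS libraries, gave a log2 fold of 1.72 for B2m (SE 0.40, adjusted p = 0.196, edgeR), from 295, 181 and 369 CPM to 635 and 1189 CPM. B2m passed there with DESeq2 (1.73, adjusted p = 0.0262), which also called H2-T23 in macrophages (1.05, adjusted p = 0.0114). Endothelial cells, dendritic cells and neutrophils stood closer to 0, with medians over the members of 0.26, 0.29 and 0.03. H2-K1 in dendritic cells differed by -0.01 (SE 0.16) and B2m by 0.11 (SE 0.13). No gene of the 4 lists passed in these 8 classes.

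**Figure D4:**
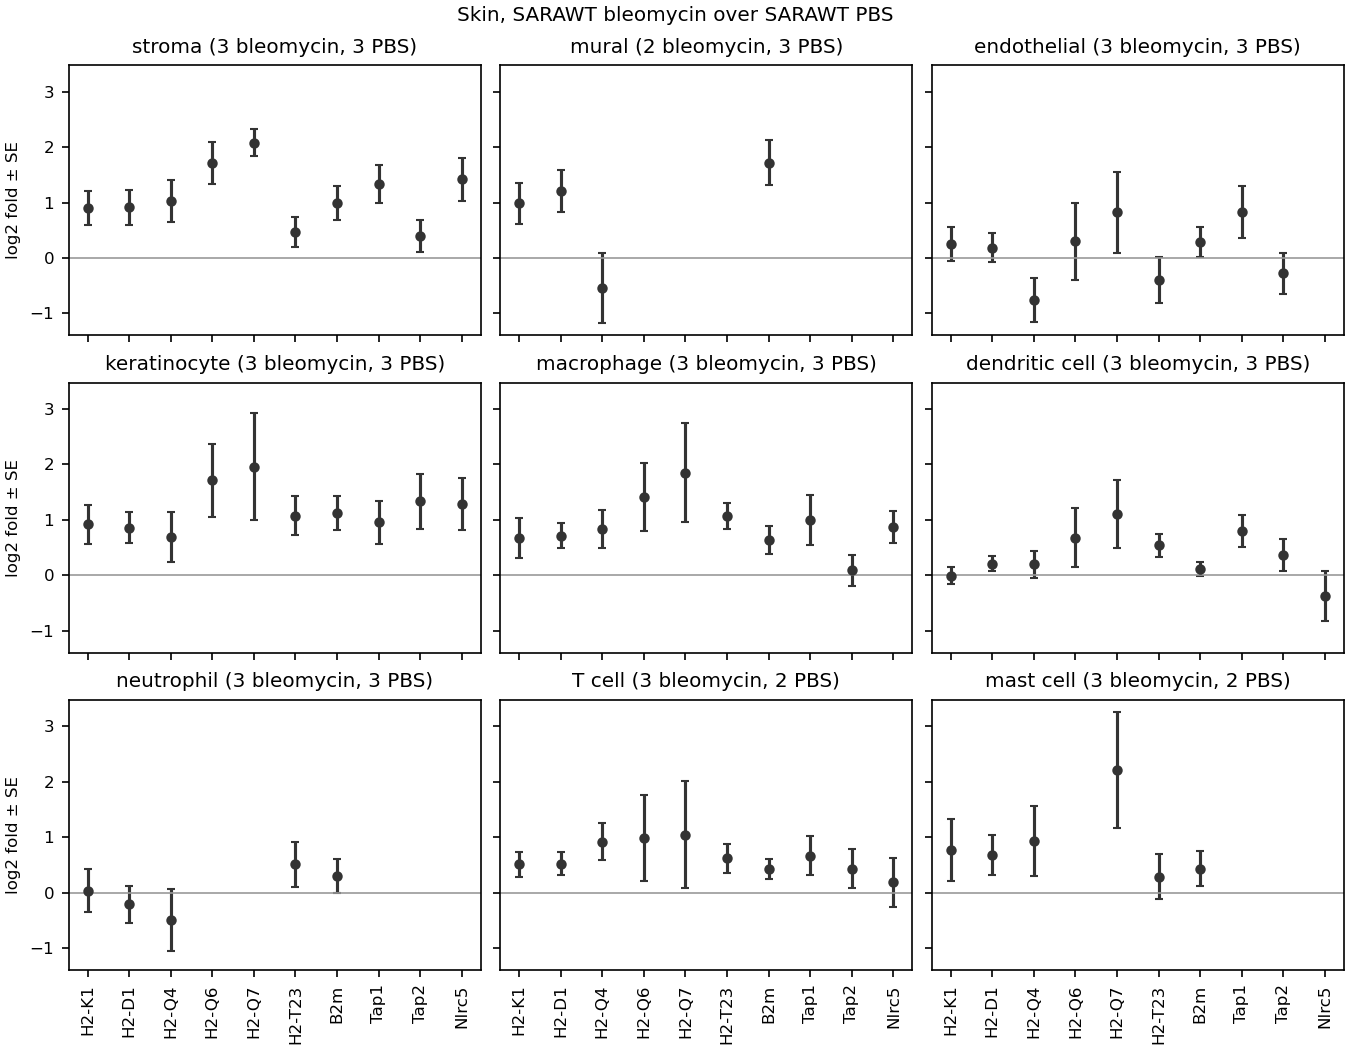
Log2 fold of SARAWT bleomycin over SARAWT PBS (points) with its SE (bars) for each gene in 9 skin classes, with stroma, from which genes were chosen, among them. Points lie above 0 for all genes tested in stroma, macrophages, keratinocytes, T cells and mast cells, and on both sides of 0 in endothelial cells, mural cells, dendritic cells and neutrophils.

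In kidney proximal tubule, class I levels differed between libraries far more than in T cells, and vehicle 3 lay with the aristolochic acid libraries. H2-K1 was 73.4, 72.2 and 766 CPM in SARAWT vehicle 1 to 3, 1155, 404 and 1269.8 CPM in SARAWT aristolochic acid 1 to 3, 86.6 and 113 CPM in SARATg vehicle 1 and 2, and 709.9 CPM in the SARATg aristolochic acid library. B2m was 127, 198 and 1015 CPM, 1213, 777 and 1712 CPM, 167 and 202 CPM, and 887 CPM in the same order. The 4 other vehicle libraries were thus the lowest for both genes, and the groups overlapped through vehicle 3 alone, the library with 55.2 CPM of Havcr1.

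The transactivator and the transporter ran alike. Nlrc5 was 0.294, 0.204 and 8.22 CPM in SARAWT vehicle, 14.3, 4.92 and 27.5 CPM in SARAWT aristolochic acid, 0.653 and 0.407 CPM in SARATg vehicle and 8.26 CPM in SARATg aristolochic acid. Tap1 was 1.58, 1.72 and 16.3 CPM, 34.9, 18.3 and 50.9 CPM, 4.35 and 4.58 CPM, and 32.1 CPM. For Tap1 the aristolochic acid libraries lay above all vehicle libraries, and for Nlrc5 vehicle 3 lay above aristolochic acid 2.

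H2-Q6, which chose the kidney contrast, was 0.609, 0.459 and 10.5 CPM in SARAWT vehicle, 37.3, 4.68 and 34.9 CPM in SARAWT aristolochic acid, 1.001 and 0.713 CPM in SARATg vehicle and 19.1 CPM in SARATg aristolochic acid. H2-Q7 was 0.183, 1.26 and 40.8 CPM, 139.8, 2.64 and 124 CPM, 5.88 and 2.44 CPM, and 47.3 CPM. Aristolochic acid 2 was the lowest treated library for both genes and for H2-K1. Its H2-Q6 and H2-K1 lay above the 4 lowest vehicle libraries, and its H2-Q7 lay below that of SARATg vehicle 1.

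**Figure D5:**
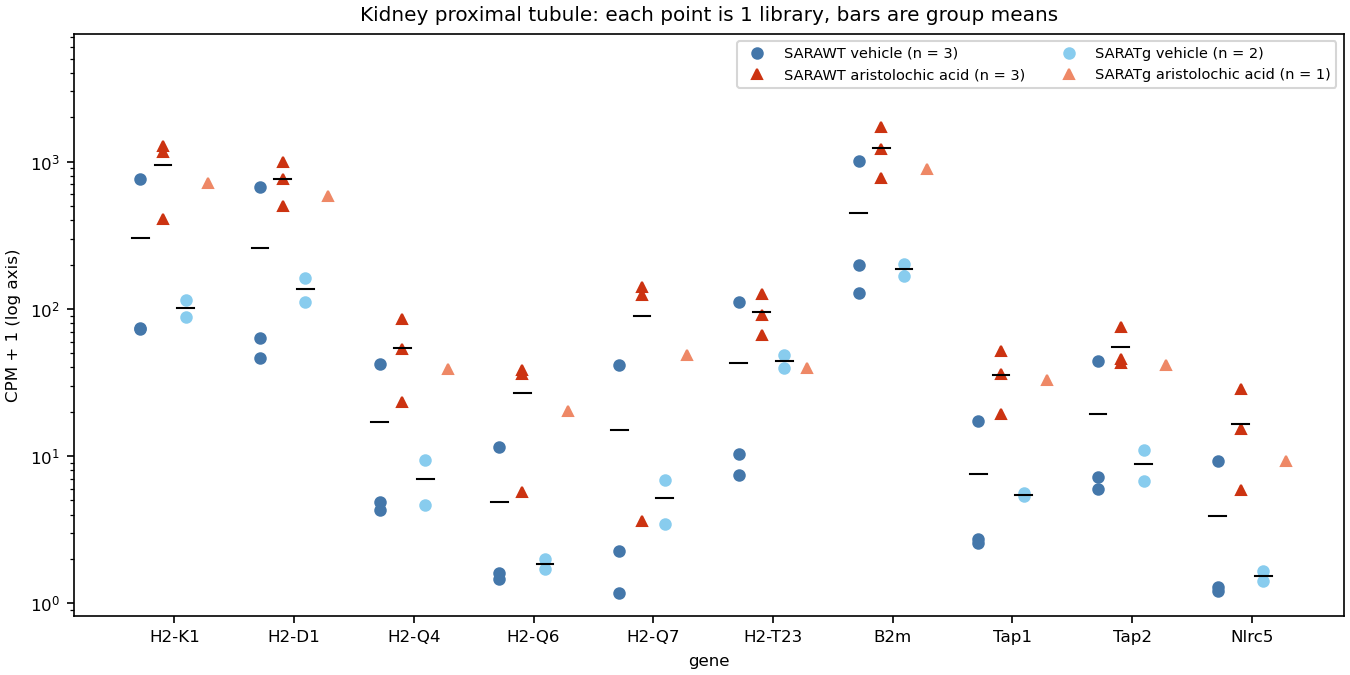
CPM + 1 (log axis) of the 10 genes in kidney proximal tubule cells, 1 point per library and a bar at the mean of groups with more than 1 library, for SARAWT vehicle (3), SARAWT aristolochic acid (3), SARATg vehicle (2) and SARATg aristolochic acid (1). For every gene 1 SARAWT vehicle point, library 3, lies well above the other 4 vehicle points and, except for Tap1, above the lowest SARAWT aristolochic acid point.

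Over 9 kidney classes, 0 of 73 tests of the members were called in either direction for SARAWT aristolochic acid against vehicle, with 0.0381% of all 68203 tests higher and 0.0528% lower. The fold was above 0 in 65 of 73, against 49.1% of all tests, and the groups did not overlap in 13, against 15.8%. The genes were chosen partly from this contrast, so these counts are a description. In proximal tubule the folds ran from 0.95 (H2-T23) to 2.60 (H2-Q6). Vehicle 3 decided their size, since without it proximal tubule H2-K1 had a log2 fold of 3.42 (SE 0.51) and Nlrc5 of 5.63 (SE 0.80).

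Cd3e, a T cell receptor subunit, was 0.191 to 7.01 CPM in proximal tubule against 416 to 576 CPM in T cells. The 10 T cell markers summed to 6.41 to 21.7 CPM in SARAWT vehicle proximal tubule and 32.0 to 83.6 CPM with aristolochic acid, and the 12 macrophage markers to 31.1 to 208 CPM and 74.2 to 265 CPM. Summed B cell markers ran the other way, from 473 to 1438 CPM and from 53.0 to 164 CPM, as did neutrophil markers, from 96.5 to 894 CPM and from 5.65 to 24.1 CPM. Their part in the class I levels was not tested. As a description of the lists, Psmb8 was higher (log2 fold 3.23) and Pdia3, a chaperone of peptide loading, lower (-1.17) in intercalated cells with aristolochic acid. No other gene of the 4 lists passed. This class was the only one fitted without vehicle 3 (3 treated and 2 vehicle libraries). It was also the only one in which any gene was called, 0.569% higher and 0.788% lower of 4569 genes, so these values do not set it apart from other classes.

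The transgene was tested in kidney without treatment, 2 SARATg against 3 SARAWT vehicle libraries. None of 79 tests in 10 classes passed with edgeR, where 0.0162% of all 73879 tests were higher and 0.0189% lower, or with DESeq2, where 0.115% were higher and 0.249% lower. At an unadjusted p under 0.05 there were 6 of 79, against 6.25% of all tests, and 42 folds were above 0, against 47.7%. Neither count was stable, since 65 of 75 folds were above 0 without vehicle 3, 21 of 80 without vehicle 1, 24 of 81 without vehicle 2 and 28 of 81 without SARATg vehicle 1. At an unadjusted p under 0.05 there were 20 of 75 without vehicle 3, against 10.01% of all tests, and 11 of 81 without vehicle 2, against 5.65%. The groups did not overlap in 12, against 25.8% of all tests. In T cells the folds ran from -0.28 (Tap1, SE 0.33) to 0.45 (H2-Q7, SE 1.21), with H2-K1 at 2530.0 ± 84.8 CPM (SD, n = 2) and 2519 ± 796 CPM (SD, n = 3). The largest fold was that of H2-Q7 in principal cells of the collecting duct, 0 and 2.29 CPM in SARATg against 49.7 and 81.0 CPM in SARAWT vehicle 2 and 3 (log2 fold -4.85, SE 1.12, adjusted p = 0.0761, edgeR), and the 0 rests on 10 cells and allows up to 29.6 CPM.

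Vehicle 3 also decided calls here. Without it, B2m (log2 fold 2.19, adjusted p = 0.00311), H2-K1 (1.68, adjusted p = 0.00294) and H2-D1 (1.97, adjusted p = 0.00113) were higher in SARATg thick ascending limb by edgeR (3 of 75 tests, against 0.121% of all tests), from 266 and 143 CPM of B2m in SARATg against 59.9 and 36.3 CPM in SARAWT vehicle 1 and 2 and 275 CPM in vehicle 3. Without vehicle 2, 6 of 81 tests were lower, against 0.182% of all tests, and these were 6 genes in SARATg principal cells, a comparison that leaves vehicle 3 as the lone SARAWT library. No gene of the 4 lists passed for the transgene.

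Over the cell classes, the 4 lists are set beside the shares of all tests, 21.8% higher and 32.4% lower in skin and 24.5% and 32.7% in kidney. The list of cytokine and immune receptor genes holds Ifng, Ifnb1 and Tnf. It gave 21 higher of 23 tests in skin and 27 of 41 in kidney, and 0 lower. Among those higher than in the reference class were Klra8, an activating NK receptor, and Klrc1, a chain of the receptor that reads Qa-1, in NK cells. Ifng, the gene of interferon-γ, was higher in NK cells of both tissues and skin T cells. A gene near 0 in the reference class enters a fit only through the class that has it, so nothing is read from this count. Klra8 is also one of the markers that set the NK class, so its place there is no finding. Peptide generation and loading gave 36 higher (30.0%) and 41 lower (34.2%) of 120 tests in skin, of which the lower share is near that of all tests, and 60 higher (54.5%) and 18 lower (16.4%) of 110 in kidney. Psmb9, an immunoproteasome subunit, was higher by a log2 fold of 3.38 in skin dendritic cells and of 4.44 in kidney T cells. Regulators gave 55 higher (34.4%) and 25 lower (15.6%) of 160 in skin and 76 higher (50.7%) and 11 lower (7.33%) of 150 in kidney, with Ifngr1 and Ifngr2, the 2 chains of the interferon-γ receptor, higher by 3.62 and lower by -4.41 in skin NK cells. The 12 other class I genes gave 21 higher (29.2%) and 23 lower (31.9%) of 72 in skin and 41 higher (48.8%) and 15 lower (17.9%) of 84 in kidney, among them H2-Q10, higher by 6.64 in skin and 6.93 in kidney neutrophils. The genes with larger folds were lower, as Cd1d1, which presents lipids, was by -8.10 (SE 2.13) in skin muscle cells, Fcgrt, the Fc receptor heavy chain that binds IgG, by -6.93 (SE 0.63) in skin ILC2, and H2-M2 by -8.24 (SE 2.12), -7.93 (SE 2.36) and -7.20 (SE 2.56) in kidney thick ascending limb, NK and intercalated cells. Of the 12 other class I genes, 9 in skin and 11 in kidney entered a fit. Here too a gene near 0 in 1 of the compared classes enters only through the other, so nothing is read from these counts.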

How the data were processed

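Droplet single-cell RNA libraries (10x Genomics 3′ v3) of sorted GFP+ cells were analysed from 17 samples, 8 of skin and 9 of kidney. The deposited values are raw UMI counts for each gene in each called barcode, written by Cell Ranger as the authors ran it (4.0.0, 3.1.0 or 3.0.2 per the file headers) and not normalized. The submitters' processing notes also name Cell Ranger 3.0.2, Seurat 2.3.4 and mm10. The authors used 2 gene lists, and they were joined by Ensembl identifier (30406 shared genes).

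Cells with fewer than 200 genes or more than 20% mitochondrial UMIs were dropped. They were gated by fixed marker lists (at least 3 markers, leading by 2). No doublet caller was run, and cells that no class led were left out. UMIs were summed per library and class with at least 10 cells. The summed counts of all genes entered the two-sided quasi-likelihood test of edgeR 4.0.16 (with limma 3.58.1, in R 4.3.3) after filterByExpr and TMM, with Benjamini-Hochberg adjustment at 0.05. Groups needed 2 libraries, and class comparisons 3 libraries and a library term. The edgeR test was checked on simulated counts for 1 or 2 classes of each comparison. Intervals are 95% Poisson intervals, floors are 3 UMIs, and both cover counting error only. Skin Schwann cells and kidney dendritic cells were left out, since their 10 top genes held more markers of another class than of their own.

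The 10 members, the 4 lists and the rule for naming genes (all members, then called list genes, at most 5 per list and comparison by size, and the 5 genes most alike in pattern) were chosen with earlier results of these data known. Alternatives were DESeq2 1.42.0, other size factors, no filter on low counts, stricter cells (500 genes, 10%) or gates (4 markers), no shared barcodes, the gene list as a covariate, a replicate block, control libraries only, and each library left out. Deviations of same-numbered skin libraries from their group means correlated in stroma (r = 0.211, 0.211 and 0.371) and macrophages (r = 0.316, 0.236 and 0.568). In stroma each library correlated most with its same-numbered one. A pairing belongs to the libraries, however, and other classes did not show it throughout. The replicate block is therefore given as an alternative only. In macrophages bleomycin 2 correlated as much with PBS 1 (r = 0.240), so numbers 1 and 2 were not told apart. SARAWT skin libraries numbered 1 and 2 had the longer gene list and those numbered 3 the shorter one. The part of this in the correlations was not tested. Sums and figures were made in Python 3.11.15 with matplotlib 3.10.9, pandas 2.3.3, scipy 1.17.1 and numpy 2.4.6. Promoters came from RefSeq (GRCm38.p6), which held 8 of the 10 members. One result from the gene lists is not reported here.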

Additional observations from a re-analysis of the deposited data

Results flagged for a closer look

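In skin stroma, 4 of the 10 genes lay in opposite directions with bleomycin in the libraries labelled SARATg and SARAWT, in the sense that the single SARATg bleomycin library lay below the single SARATg PBS library while all SARAWT bleomycin libraries lay above all SARAWT PBS libraries. The CPM ratio of bleomycin over PBS was 0.373 in SARATg against 4.06 (ratio of means) in SARAWT for H2-Q7 and 0.457 against 3.40 for H2-Q6. It was 0.828 against 1.87 for H2-D1 and 0.820 against 2.58 for Nlrc5. Of all 11306 genes tested in stroma, 0.460% were higher in SARAWT and lower in SARATg in this way, and 3.41% were opposite either way. The members were chosen from the SARAWT contrast, so nothing is read from their count. Col1a1, a marker of the class, was 5320 CPM in the SARATg bleomycin and 83029 CPM in the SARATg PBS library. Of the SARAWT PBS libraries, PBS 3 went against its label with 620 CPM of Zfyve9, above both SARATg libraries (314 and 226 CPM), and PBS 1 had 845 CPM of human ZFYVE9. The difference between genotypes was not tested, since SARATg had 1 library per group, and 20 such gene and tissue pairs were looked at. The SARATg bleomycin library also had low H2-Q7 and H2-Q6 in its T cells and macrophages, SARAWT PBS 2 and 3 had low H2-Q7 in macrophages too, and the part of this in the ratios was not tested.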

How the results depend on the processing

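In skin stroma, 2 of 10 members were called higher, against 2.34% of all genes. The number was 5 with DESeq2 (4.89% of all genes) and 5 with no filter on low counts (2.76%). It was 1 with stricter cells (2.20%) and 1 with the gene list as covariate (2.64%). Without shared barcodes it was 0, where 0% of all genes were called higher. With 1 library left out it was 0 to 1, and the 0 came without bleomycin 1, where again 0% of all genes were called. With the replicate block it was 3 (H2-Q7, H2-K1 and Tap1, not H2-Q6), against 5.87% of all genes. In the other skin classes the number was 0 of 64 tests (0.0240% of all tests). It was 2 of 64 with DESeq2 (0.330%), 7 of 80 with no filter on low counts (0.407%) and 2 of 64 with the gene list (0.254%). The replicate block gave 3 of 62 (0.336%), and the third was B2m in mural cells (log2 fold 1.75, adjusted p = 0.0283, edgeR). With 1 library left out, calls came only for H2-Q7 in keratinocytes and T cells (without PBS 1) and B2m in mural cells (without bleomycin 2). The T cell and mural fits then had 1 library in a group. Same-numbered libraries did not deviate together in every pair of the skin endothelial, keratinocyte, dendritic and neutrophil classes (lowest r from 0.00777 to 0.0734). The same held for every kidney class with 3 pairs. Mural, T and mast cells and the transgene comparison had 2 pairs at most. The numbers were therefore not taken as a settled pairing in any class. For kidney aristolochic acid the number of members called higher was 0 of 73 tests (0.0381% of all tests). It was 1 of 73 with DESeq2 (0.217%), 5 of 90 with no filter (0.242%) and 0 to 17 with 1 library left out. The 17 of 69 came without vehicle 3 (1.42% of all tests), and 1 of 76 without aristolochic acid 2 (0.0878%). For the kidney transgene, higher calls came to 0, 1 with no filter, 5 with the replicate block and 0 to 3 with 1 library left out (3 without vehicle 3, 2 without SARATg vehicle 1), and lower calls to 0, 2 with no filter and 0 to 6 (6 without vehicle 2). Lower calls between skin classes fell from 15 to 7 in control libraries only. Those between kidney classes fell from 17 to 9 with DESeq2, 9 with stricter cells and 4 in control libraries. Fewer libraries were fitted there, but higher calls in kidney controls were 64 of 89 tests (22.5% of all tests), against 61 of 99 (24.5%) in all libraries. Folds above 0 were 78 of 89, against 70 of 99. In the transgene comparison no SARATg library is numbered 3, so SARAWT vehicle 3 had no pair in the replicate block. The folds with the block thus rest on numbers 1 and 2, as without vehicle 3. B2m, H2-K1 and H2-D1 in thick ascending limb were called in both, and H2-Q4 and H2-T23 in T cells with the block only. Of all transgene tests, 0.529% were higher with the block, and 0.223% were higher and 0.460% lower with no filter. Alternatives chosen after seeing the data left out the libraries that went against their labels. Without PBS 1 and 3, which leaves PBS 2 as the lone PBS library, Tap2 in stroma turned from 0.40 to -0.18 on the log2 scale. Without aristolochic acid 1 and vehicle 3, 4 of 66 member tests in kidney were called higher, against 0.409% of all tests. The cause of these moves was not tested. A further 104 counts of calls stayed within 1.5 times. Classes with few cells, such as mural, muscle and principal cells, limit what low genes such as Nlrc5 and H2-Q6 can show.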
